A study of Mus musculus with 6 samples.

Results

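The genes of hepatic stellate cells and of fibrous matrix were compared between the livers of mice without arylsulfatase B (ARSB), a lysosomal enzyme that removes sulfate groups from chondroitin and dermatan sulfate, and the livers of control mice. Of 39 genes listed, 11 were markers of quiescent stellate cells and pericytes, 7 were genes of activated cells and of transforming growth factor beta (TGF-beta), and 21 coded for matrix proteins and enzymes. A gene was measured where a probe set of the array was annotated with that gene symbol alone, and where a gene had several such probe sets the one with the highest mean over the arrays was taken. By this rule 37 of the 39 genes were measured, among 19938 genes that the array named in the same way. Loxl2 lay only on a probe set annotated with several symbols and Fbn1 on none that was listed, so neither has a value, and each of the 37 others had a single probe set.

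The ARSB-null group was 3 male mice homozygous for the null allele on a C57BL/6J background, and the control group was 3 male C57BL/6J mice. All were 12 weeks of age, none was treated, and 1 array was hybridized with total RNA from the hepatic tissue of each mouse. The null colony was bred from a heterozygous commercial strain, and whether the controls were littermates is not given in the sources used here. The mice of both groups bear the numbers 4, 5 and 6. For killing, the labels name ketamine with xylazine, the methods carbon dioxide, and both cervical dislocation.

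Stellate cells lie between the hepatocytes and the sinusoidal endothelium and store vitamin A as retinyl esters. In injured liver they lose these droplets and turn into contractile myofibroblasts that express smooth muscle actin and secrete fibrillar collagens. TGF-beta is the best known signal for this step, and it is held in the matrix in a latent form until it is released. Stellate cells are a minor cell type of the liver, so that in whole tissue fewer cells of a type and less RNA per cell cannot be told apart.

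All values are log2 signals, in which a difference of 1 is a doubling. Arsb itself, the gene of the null allele, was read on the brighter of its 2 probe sets. It was 7.63, 7.46 and 7.64 in ARSB-null mice 4, 5 and 6 and 10.21, 10.23 and 10.21 in control mice 4, 5 and 6. Its mean was 6.23-fold lower in the null livers (limma, adjusted p = 0.000639). Of 35556 probe sets, 2 were called higher and 5 lower at an adjusted p under 0.05, which is 0.0197% of them. With the mouse number as a block these counts were 1 and 3. Albumin (Alb), the defining product of hepatocytes, read between 14.07 and 14.29 in the 6 livers, and 33 of the 37 stellate cell and matrix genes had a mean signal above the median of the array. The medians of the 6 arrays lay between 6.496 and 6.599, and those of control mice 5 and 6 were the 2 lowest. The mean of the null group was above that of the control group for 50.4% of all probe sets and for 45.2% of the 19938 genes.

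None of the 37 stellate cell and matrix genes was called higher or lower in the null liver by limma at an adjusted p under 0.05, and the lowest adjusted p was 0.535. At an unadjusted p under 0.05, 1 gene (Ecm1) was higher and 0 were lower, where 5.94% of all probe sets passed in either direction, 2.75% as higher and 3.19% as lower. The one-way analysis of variance of each probe set alone, the test the methods name, also called 0 after adjustment and had 3 genes under an unadjusted 0.05 (Reln, Ecm1 and Tgfbr2), against 6.56% of all probe sets. The groups did not overlap in 6 of the 37 genes (16.2%), against 11.9% of all probe sets and 13.0% of genes, and all 6 were higher in the null liver, where 5.14% of probe sets lay on that side. These were Reln, Ecm1, Des, Tgfbr2, Sparc and Thbs2. With the medians of the arrays centred on their common mean, the groups of 2 of the 6 remained apart, those of Ecm1 and Thbs2.

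The null mean was above the control mean in 30 of the 37 genes (81.1%), against 45.2% of the 19938 genes. With array medians centred it was above in 24 (64.9%), against 42.1% of all probe sets and 36.0% of the 19938 genes. The median difference, ARSB-null minus control, was 0.10 for the quiescent class (10 of 11 above 0), 0.09 for the activated class (7 of 7 above 0) and 0.03 for the matrix class (13 of 19 above 0), beside 0.00 for all probe sets. Centred in that way, the median of the matrix class lay just below 0. These counts and medians moved with single arrays. Of the 37 genes, 23 had a higher null mean without ARSB-null mouse 4, 25 without control mouse 6 and 32 without control mouse 4. The share of the 19938 genes moved too, and was 42.9%, 42.5% and 51.9% in these 3 settings. The median of the matrix class was 0.11 without control mouse 4, 0.05 without ARSB-null mouse 6, and -0.01 without ARSB-null mouse 4 or without control mouse 6. That of the activated class was 0.03 without control mouse 6, and that of the quiescent class lay between 0.08 and 0.13 with any 1 array left out.

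The intervals of the differences were narrow for most of the genes. For 32 of the 37 genes (86.5%) the 95% interval of limma lay within 1.5-fold in either direction, against 73.4% of all probe sets and 85.8% of genes. The 5 whose interval ran further were Ecm1, Lrat, Postn and Dpt upward and Thbs1 downward. For all 37 it lay within 2-fold, against 92.5% of probe sets and 98.7% of genes. The outermost ends were 1.77-fold higher, for Ecm1, and 1.73-fold lower, for Thbs1. The limma p-values and intervals rest on the spread between mice, pooled over both groups of 3. The fit draws this spread toward a value common to all probe sets. An interval can therefore be wider or narrower than the mice alone would give for that gene.

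**Figure D1:**
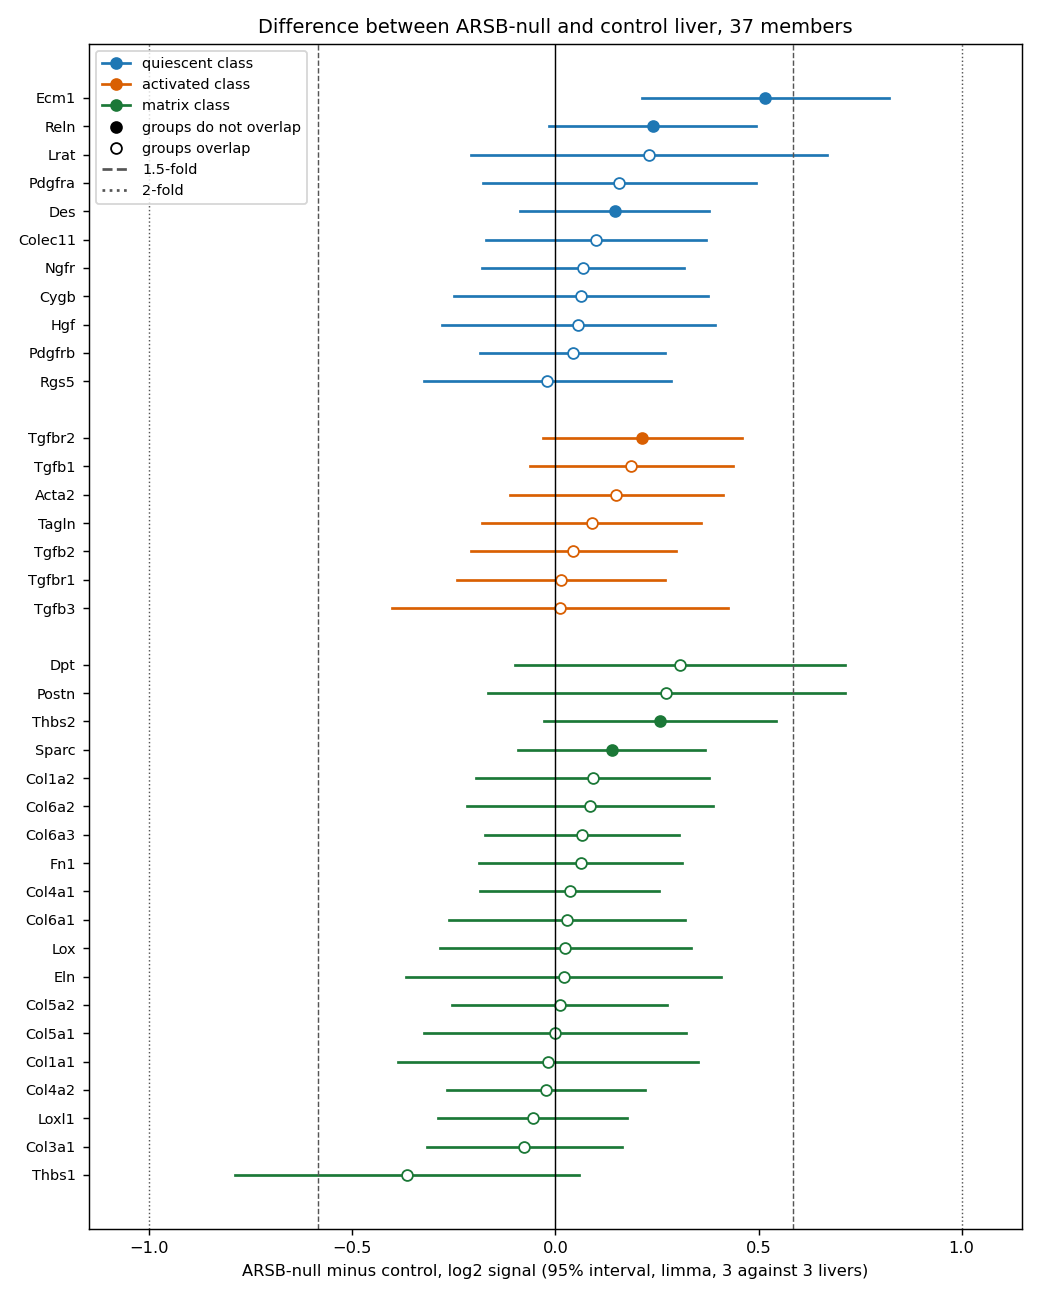
ARSB-null minus control, in log2 signal (horizontal axis), for 37 genes, sorted within the quiescent, activated and matrix classes. Points are differences of means of 3 livers, bars are 95% intervals from limma, filled points mark the 6 genes whose groups do not overlap, and dashed and dotted lines mark 1.5-fold and 2-fold. The interval of Ecm1 alone lies clear of 0, and no interval reaches a dotted line.

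The gene with the smallest p of the 37 was Ecm1, which codes for extracellular matrix protein 1, a secreted protein known to keep latent TGF-beta in the liver matrix from being activated. Its signal was 11.26, 11.23 and 11.40 in ARSB-null mice 4, 5 and 6 and 10.56, 10.84 and 10.94 in control mice 4, 5 and 6. The lowest null liver was above the highest control liver. The difference was 0.52 ± 0.13 (SE), or 1.43-fold with a 95% interval of 1.16 to 1.77, with an unadjusted p of 0.00508 and a limma adjusted p of 0.535. Between mice of the same number it was 0.70, 0.39 and 0.46. Over the alternatives of processing the difference ran from 0.41 to 0.60, and the lowest adjusted p was 0.222, when only probe sets with 1 symbol were tested.

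The stretch before the start of the Ecm1 gene is printed because this gene had the smallest p of the list. It is the 250 bases before the RefSeq start in GRCm38.p6, at chr3:95739570-95739819 on the minus strand, 5′ to 3′. Capitals mark an AP-1 site, of which the first base stands 64 bases before the start, and a TATA box at 27 bases before it.
Ecm1: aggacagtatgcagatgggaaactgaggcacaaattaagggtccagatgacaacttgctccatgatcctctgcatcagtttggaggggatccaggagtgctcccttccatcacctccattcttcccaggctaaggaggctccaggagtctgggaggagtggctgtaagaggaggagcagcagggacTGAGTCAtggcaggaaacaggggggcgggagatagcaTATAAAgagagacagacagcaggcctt

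Reln codes for reelin, a large secreted glycoprotein that in liver marks stellate cells. It read 9.99, 10.03 and 9.90 in ARSB-null mice 4, 5 and 6 and 9.59, 9.81 and 9.80 in control mice 4, 5 and 6. Here too each null liver was above each control liver, by 0.24 ± 0.11 on average (95% interval 0.990-fold to 1.41-fold), with a limma unadjusted p of 0.0615 and an adjusted p of 0.851. The gap between the groups was 0.09, and it closed when array medians were centred.

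The Reln start is shown beside that of Ecm1 because Reln came second by p in the quiescent class and its groups also stood apart. The 250 bases lie at chr5:22344706-22344955 on the minus strand of GRCm38.p6, and capitals mark an E-box 71 bases before the start.
Reln: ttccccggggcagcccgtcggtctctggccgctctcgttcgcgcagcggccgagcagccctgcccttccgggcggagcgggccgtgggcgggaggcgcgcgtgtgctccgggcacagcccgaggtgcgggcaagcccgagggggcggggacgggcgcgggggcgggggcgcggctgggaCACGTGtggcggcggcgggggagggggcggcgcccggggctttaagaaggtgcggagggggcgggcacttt

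Lrat codes for lecithin retinol acyltransferase, which makes the retinyl esters that stellate cells store. Its signal was 9.77, 9.96 and 9.26 in ARSB-null mice 4, 5 and 6, with 9.36, 9.50 and 9.45 in control mice 4, 5 and 6. A pair of null livers were above all controls and ARSB-null mouse 6 was below them all, so the groups overlapped and the standard deviation was 0.36 in the null and 0.07 in the control group (n = 3 each). The mean difference was 0.23, with an interval from 0.866-fold to 1.59-fold and a limma adjusted p of 0.977.

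Pdgfra and Pdgfrb code for the receptors of platelet-derived growth factor, which drives stellate cells to divide. Pdgfrb, found on stellate cells and other pericytes, read 8.01, 8.04 and 7.89 in ARSB-null mice 4, 5 and 6 and 7.93, 7.89 and 7.98 in control mice 4, 5 and 6. The groups lay over each other, and the interval of the difference, 0.880-fold to 1.21-fold, was among the narrower ones. Pdgfra differed by 0.16 (limma adjusted p = 0.984), with its lowest value in ARSB-null mouse 6 and its highest in ARSB-null mouse 5, as for Lrat.

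Des codes for desmin, the intermediate filament of stellate and muscle cells. It was 7.10, 7.10 and 7.27 in ARSB-null mice 4, 5 and 6 and 6.99, 7.04 and 7.01 in control mice 4, 5 and 6. The groups did not overlap, but the lowest null and the highest control liver were 0.06 apart. The difference was 0.15, with a limma adjusted p of 0.964.

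The 5 remaining genes of the quiescent class differed by 0.02 to 0.10 in absolute size. Hgf, which codes for hepatocyte growth factor, made in the liver by stellate cells, differed by 0.06, and Colec11, a collectin of the complement system, by 0.10. Cygb, the globin that marks stellate cells, differed by 0.06, and Ngfr, a receptor for neurotrophins, by 0.07. Rgs5, a pericyte regulator of G protein signalling, was the single gene of the class with a lower null mean, by 0.02 (null 9.08, control 9.10). The limma adjusted p of these 5 was between 0.989 and 0.997.

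Among the contractile genes, Acta2 codes for smooth muscle actin, the usual mark of an activated stellate cell. It read 7.38, 7.14 and 7.40 in ARSB-null mice 4, 5 and 6 against 7.12, 7.11 and 7.23 in control mice 4, 5 and 6. ARSB-null mouse 5 lay among the controls, and the interval was 0.925-fold to 1.33-fold around a difference of 0.15 (limma adjusted p = 0.972). Tagln, which codes for transgelin, an actin-binding protein of the same cells, had 7.01, 6.87 and 6.81 in ARSB-null mice 4, 5 and 6 and 6.85, 6.91 and 6.66 in control mice 4, 5 and 6, with an interval of 0.882-fold to 1.28-fold.

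Of the TGF-beta ligands, Tgfb1, the form most tied to fibrosis, read 8.20, 8.37 and 8.36 in ARSB-null mice 4, 5 and 6 and 8.23, 8.06 and 8.09 in control mice 4, 5 and 6. The groups crossed in the mice numbered 4, and the difference of 0.19 had a limma unadjusted p of 0.12 and an adjusted p of 0.927. Tgfb2 differed by 0.04 and Tgfb3 by 0.01, and both had mean signals below the median of the array, as had Col5a2 and Lox.

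The receptors differed in how far their groups stood apart. Tgfbr2, the receptor chain that binds the ligand first, read 8.85, 8.79 and 8.95 in ARSB-null mice 4, 5 and 6 and 8.63, 8.76 and 8.56 in control mice 4, 5 and 6. The groups did not overlap, with 0.03 between the lowest null and the highest control liver. The difference was 0.21 ± 0.10 (interval 0.979-fold to 1.37-fold), with a limma unadjusted p of 0.078 and an adjusted p of 0.876. Tgfbr1, the chain that carries the signal inward, differed by 0.01, and its groups overlapped.

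**Figure D2:**
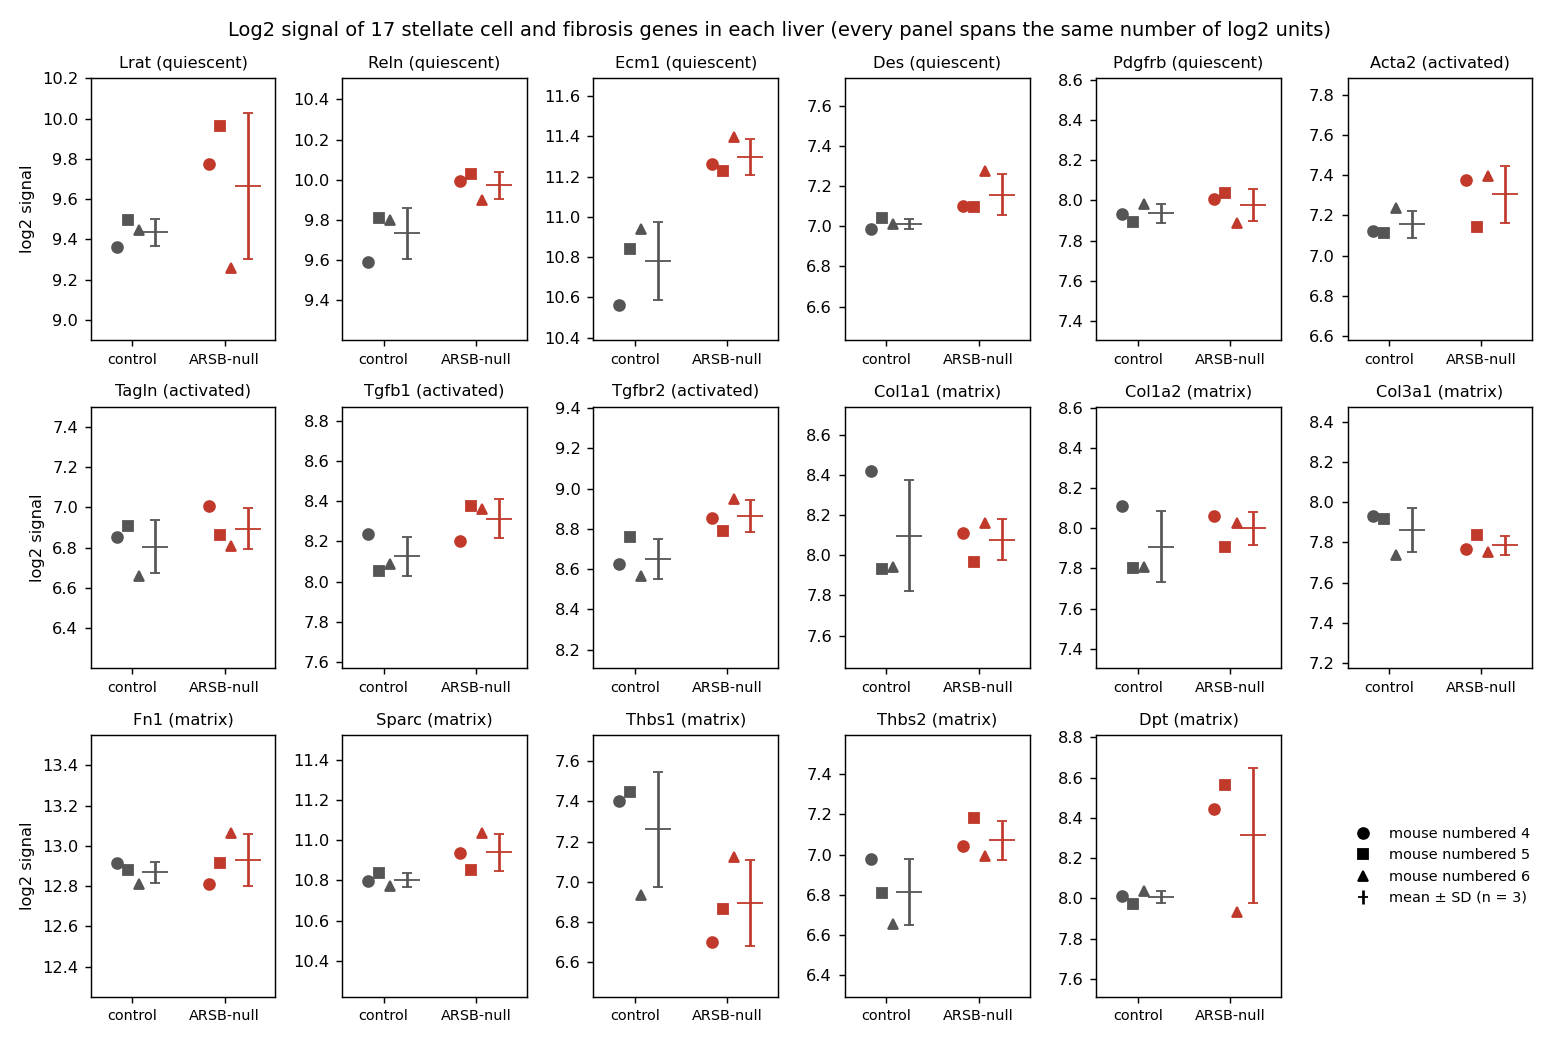
Log2 signal (vertical axis, each panel spanning the same number of log2 units) of 17 genes in each control and ARSB-null liver, with circles, squares and triangles for the mice numbered 4, 5 and 6 and the mean ± SD (n = 3) beside them. The groups stand apart in the panels of Ecm1, Reln, Des, Tgfbr2, Sparc and Thbs2, the point of ARSB-null mouse 6 lies low for Lrat and Dpt, and control mouse 4 lies high for Col1a1 and Col1a2.

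The 5 fibrillar collagen genes measured had a median difference within 0.01 of 0, with 2 above and 3 below. Col1a1, one of the pair of chains of type I collagen, the main collagen of scar, read 8.11, 7.96 and 8.16 in ARSB-null mice 4, 5 and 6 and 8.42, 7.93 and 7.94 in control mice 4, 5 and 6. The highest of the 6 livers was control mouse 4, and the difference of -0.02 had an interval from 0.764-fold to 1.28-fold. Col1a2, the partner chain, had 8.06, 7.91 and 8.03 in ARSB-null mice 4, 5 and 6 and 8.11, 7.80 and 7.81 in control mice 4, 5 and 6, a difference of 0.09 with an interval from 0.872-fold to 1.30-fold. Again control mouse 4 was the highest liver.

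Col3a1, the type III collagen that accompanies type I, read 7.77, 7.84 and 7.75 in ARSB-null mice 4, 5 and 6 and 7.93, 7.92 and 7.74 in control mice 4, 5 and 6. The groups overlapped through control mouse 6, and the difference was -0.08 (interval 0.802-fold to 1.12-fold, limma adjusted p = 0.993). The type V chains, which start the assembly of collagen fibrils, were as close. Col5a1 averaged 7.29 in both groups, and Col5a2 averaged 6.38 in the null and 6.37 in the control group.

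The start of Col1a2 is shown as that of a fibrillar collagen whose groups overlapped. Its 250 bases lie at chr6:4505368-4505617 on the plus strand of GRCm38.p6, and capitals mark a CCAAT box 109 bases before the start.
Col1a2: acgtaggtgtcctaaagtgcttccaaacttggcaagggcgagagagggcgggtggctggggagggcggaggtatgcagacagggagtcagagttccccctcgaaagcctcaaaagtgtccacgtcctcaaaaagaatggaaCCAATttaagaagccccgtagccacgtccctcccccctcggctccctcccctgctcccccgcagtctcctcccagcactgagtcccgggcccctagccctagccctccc

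RefSeq starts with 250 bases before them were at hand for 27 of the 39 listed genes, which had 31 promoters among 32851 in all. Each was searched on both strands. A gene was counted where any of its promoters held the letters, while the share of all promoters beside it counts single promoters. The AP-1 site, spelled TGANTCA, stood in those of 2 genes, Ecm1 and Col6a1, against 6.75% of all promoters. The E-box, spelled CACGTG, stood in those of 2 genes, Reln and Tgfb2, against 6.02%. The TATA box, spelled TATAAA, was found for 5 genes (18.5%) against 12.4%. The CCAAT box was found for 9 (33.3%) against 33.8%. The letters CAGGT, which the study names for the transcription factor MITF, were found for 8 (29.6%) against 44.1%. These letters describe the stretches and do not show that a factor bound there.

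Among the collagens of networks and beaded filaments, Col4a1 and Col4a2, the main chains of basement membrane, differed by 0.04 and -0.02. Col6a1, Col6a2 and Col6a3, the chains of type VI collagen, differed by 0.03, 0.08 and 0.07. None of the 5 had groups that stood apart, and their median was 0.04.

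The 10 collagen genes varied together in 1 animal. Control mouse 4 had the highest control signal in 10 of 10, by 0.01 or less for Col4a1, and ARSB-null mouse 4 the highest null signal in 5 of 10. As a median over the 10 genes, control mouse 4 lay 0.14 above the mean of all 6 livers and control mice 5 and 6 lay at -0.11 and -0.09, while the null mice lay between 0.01 and 0.02. Over all 19938 genes the median of control mouse 4 was 0.06. Without control mouse 4 the null mean was above the control mean in 9 of the 10 collagens instead of 6, the median difference was 0.11 instead of 0.02, and the largest was 0.19. None of the 10 had a limma unadjusted p under 0.05 in that comparison, and the lowest adjusted p was 0.666. Without both mice numbered 4 the median was 0.06, again with 9 of 10 above 0. The part of this mouse in the values of the whole class was not tested further.

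Fn1 codes for fibronectin, which hepatocytes also secrete into plasma. It read 12.81, 12.92 and 13.07 in ARSB-null mice 4, 5 and 6 and 12.91, 12.88 and 12.81 in control mice 4, 5 and 6, with an interval from 0.877-fold to 1.24-fold. The groups overlapped. Sparc codes for osteonectin, a collagen-binding protein, and read 10.94, 10.85 and 11.04 in ARSB-null mice 4, 5 and 6 and 10.80, 10.84 and 10.77 in control mice 4, 5 and 6. Its groups were apart by 0.01 between ARSB-null mouse 5 and control mouse 5, and the difference of 0.14 had a limma adjusted p of 0.967.

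The thrombospondins pointed in opposite directions. Thbs1 codes for thrombospondin 1, which is known to release TGF-beta from its latent complex. It read 6.70, 6.86 and 7.12 in ARSB-null mice 4, 5 and 6 and 7.40, 7.45 and 6.93 in control mice 4, 5 and 6. The means differed by -0.37 ± 0.18, a 1.29-fold lower null mean, and the mice numbered 6 ran the other way, by 0.19 (limma unadjusted p = 0.0804, adjusted p = 0.879). No other gene of the 37 had a mean difference below -0.08.

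Thbs2, its relative in connective tissue, read 7.04, 7.18 and 6.99 in ARSB-null mice 4, 5 and 6 and 6.98, 6.81 and 6.65 in control mice 4, 5 and 6. The groups did not overlap, the gap was 0.01, and the difference was 0.26 ± 0.12 (interval 0.981-fold to 1.46-fold, limma unadjusted p = 0.0703, adjusted p = 0.860). These groups remained apart with array medians centred, and overlapped when quantile normalization was repeated.

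Dpt codes for dermatopontin, which binds the proteoglycan decorin and helps fibrils form. Its signal was 8.45, 8.56 and 7.93 in ARSB-null mice 4, 5 and 6 and 8.01, 7.97 and 8.03 in control mice 4, 5 and 6. As for Lrat, ARSB-null mice 4 and 5 were above every control and ARSB-null mouse 6 was below every control. The difference was 0.31 (limma adjusted p = 0.923). Postn, which codes for periostin, a matrix protein of healing tissue, differed by 0.27, and ARSB-null mouse 5 at 8.28 was its highest liver (limma adjusted p = 0.964).

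The enzymes and fibres that finish the matrix were close between the groups. Lox, the lysyl oxidase that cross-links collagen and elastin, differed by 0.02 and Loxl1, its relative for elastic fibres, by -0.06. Eln, which codes for elastin, differed by 0.02. The limma adjusted p of the 3 lay between 0.993 and 0.998.

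**Figure D3:**
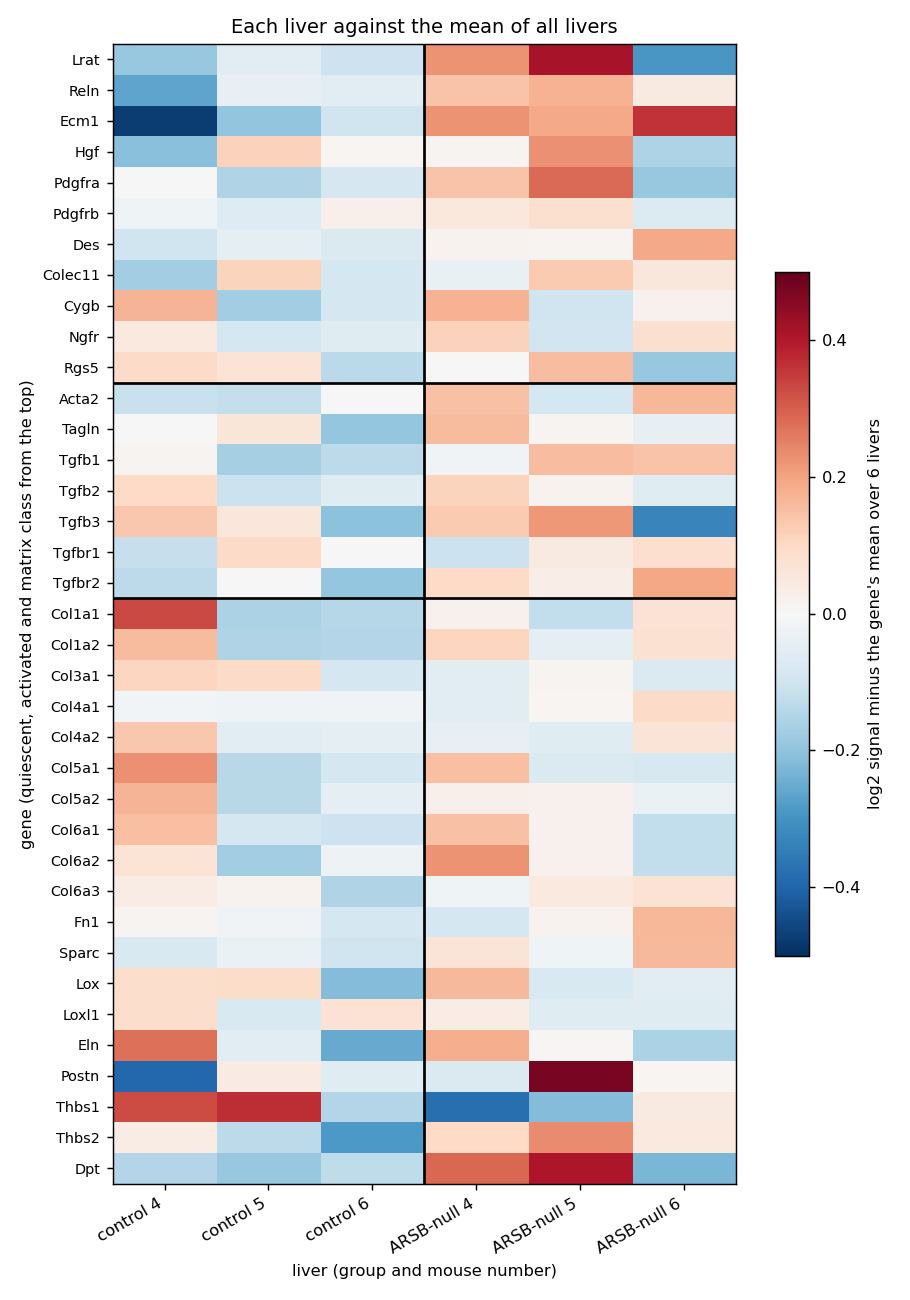
Log2 signal of each of 37 genes (rows, by class) in each of 6 livers (columns), minus the mean of the gene over the 6 livers. Red is above and blue below that mean, 9 of the 10 collagens (not Col4a1) are on the red side in control mouse 4, and Lrat, Pdgfra, Tgfb3 and Dpt are blue in ARSB-null mouse 6.

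ARSB-null mouse 5 had the highest of the 6 signals in 12 of the 37 genes, among them Lrat, Reln, Pdgfra, Pdgfrb, Tgfb1, Postn, Thbs2 and Dpt. ARSB-null mouse 6 had the lowest in 7, which were Lrat, Pdgfra, Pdgfrb, Rgs5, Tgfb3, Col6a1 and Dpt. Control mouse 6 had the highest in 0 and the lowest in 8. Leaving out ARSB-null mouse 6 brought Lrat to a difference of 0.43 (limma unadjusted p = 0.0135), Dpt to 0.50 (0.00484) and Thbs1 to -0.48 (0.0467). Their limma adjusted p was 0.930, 0.859 and 0.9998. With Ecm1, these genes had an unadjusted p under 0.05 there, as had 4.45% of all probe sets. Without ARSB-null mouse 5 instead, Lrat differed by 0.08 (limma unadjusted p = 0.666). Over all alternatives Dpt ran from 0.18 to 0.50 and Thbs1 from -0.53 to -0.16. No reason to leave ARSB-null mouse 6 out is given by its labels.

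Beyond the 39 genes, 11 further lists of related genes and of markers of other liver cells held 131 genes, of which 125 were measured, and none of these was called by limma at an adjusted p under 0.05. The list of TGF-beta signalling had 22 of 22 measured, of which 3 were higher and 0 lower at an unadjusted p under 0.05, where 5.80% of genes passed in either direction. Its groups did not overlap in 6, all higher in the null liver, where 13.0% of genes did not overlap and 4.73% did so on the higher side. Its median difference was 0.04. The 3 were Smad7, Id1 and Tgfbr3.

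Smad7 codes for the inhibitory SMAD, which TGF-beta induces and which dampens its receptor. It read 8.57, 8.70 and 8.71 in ARSB-null mice 4, 5 and 6 and 7.76, 8.09 and 8.01 in control mice 4, 5 and 6. The groups stood 0.48 apart, wider than for any of the 37 genes. The difference was 0.71 ± 0.12, or 1.63-fold (95% interval 1.34 to 1.99), with a limma unadjusted p of 0.000613 and an adjusted p of 0.271.

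Id1, a target of bone morphogenetic protein signals, differed by 0.59 (limma adjusted p = 0.604), and Tgfbr3, the co-receptor betaglycan, by 0.26 (limma adjusted p = 0.777). In both, each null liver was above each control liver.

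Of 14 other activation genes measured, 1 (7.14%) was higher at an unadjusted p under 0.05 and 0 lower, where 5.80% of genes passed in either direction. The median was within 0.01 of 0. The 1 was Ccn2, which codes for connective tissue growth factor, a known target of TGF-beta and of the YAP pathway that hepatocytes and endothelial cells express too. It read 8.81, 8.50 and 8.996 in ARSB-null mice 4, 5 and 6 and 7.93, 8.07 and 8.22 in control mice 4, 5 and 6. The null livers were all above the controls, by 0.69 ± 0.15 on average (1.62-fold, 95% interval 1.25 to 2.08), with a limma unadjusted p of 0.00295 and an adjusted p of 0.451. Next by p in this list, Lgals1 (galectin 1) differed by -0.25 and Myl9, a myosin light chain of contractile cells, by -0.35, and both had overlapping groups.

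Of 11 other stellate cell markers measured, 1 (9.09%) was higher at an unadjusted p under 0.05 and 0 lower, where 5.80% of genes passed in either direction. Their median was 0.04. Hhip, which codes for a membrane protein that binds hedgehog ligands, read 6.84, 7.01 and 6.76 in ARSB-null mice 4, 5 and 6 and 6.42, 6.45 and 6.38 in control mice 4, 5 and 6 (difference 0.46 ± 0.10, limma unadjusted p = 0.00334, adjusted p = 0.477). The groups stood apart by 0.31. Tcf21, a transcription factor of these cells, differed by 0.26 and Abcc9, a potassium channel subunit of pericytes, by 0.21, both also without overlap. Groups thus did not overlap in 3 of the 11 (27.3%), all higher. Of all genes 13.0% did not overlap, and 4.73% did so on the higher side. With the mouse number as a block 2 of this list, Hhip and Tcf21, were higher at an unadjusted p under 0.05, where 7.25% of genes passed in either direction.

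Collagen processing had 19 genes measured and a median of -0.01. Of these, 1 was higher and 1 lower at an unadjusted p under 0.05 (10.5%), where 5.80% of genes passed in either direction. Plod1, a lysyl hydroxylase of collagen, was at -0.30 (limma adjusted p = 0.731), and the oxidases Loxl3 and Loxl4 were at 0.22 and 0.30. With the mouse number as a block 0 were higher and 2 lower, where 7.25% of genes passed in either direction. Loxl3 no longer passed, and P4ha1, a subunit of the prolyl hydroxylase of collagen, now passed at a difference of -0.27 (limma adjusted p = 0.566). Of 9 small leucine-rich proteoglycans, which carry the chondroitin, dermatan or keratan sulfate chains of connective tissue or their core alone, 0 passed, the median was 0.08, and the 3 of smallest p were Lum at -0.38, Dcn at 0.08 and Aspn at 0.11. With the block 1 was lower, which was Lum (limma adjusted p = 0.556).

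Markers of the other cells that could give these signals were read beside them. Of all genes, 5.80% had an unadjusted limma p under 0.05 in either direction. Of 11 markers of portal fibroblasts and mesothelium 0 passed at an unadjusted p under 0.05 (median 0.05, with Wt1 at 0.25, Fbln2 at -0.13 and Fbln1 at 0.07). Of 6 smooth muscle markers 0 passed (median 0.09, with Lmod1 at 0.20, Actg2 at 0.12 and Myh11 at 0.11). Of 9 hepatocyte markers 0 passed (median 0.04, with Pck1 at 0.21 and Hnf4a and Tat at -0.17).

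Sinusoidal endothelial markers had 1 higher (Stab1, 0.49) and 1 lower (Lyve1, -0.31) of 10, with Tek at -0.15 and a median of -0.02. Kupffer cell markers had 1 higher (C1qa, 0.39) and 2 lower (Adgre1, -0.35, and Csf1r, -0.33) of 8 (37.5%), with a median of -0.16. With the block Vsig4 took the place of Csf1r among the 2 lower, where 7.25% of genes passed in either direction. Cholangiocyte markers had 0 higher and 1 lower (Sox9, -0.35) of 6 (16.7%), with Cldn7 at 0.20, Krt7 at -0.12 and a median of -0.01. As medians over a list, relative to the mean of the 6 livers, portal fibroblast and mesothelial markers lay at -0.15 in ARSB-null mouse 6. They lay at 0.09 and 0.10 in ARSB-null mice 4 and 5, and so ran with Lrat and Dpt. Cholangiocyte markers ran the same way, at -0.15 in ARSB-null mouse 6 and 0.01 and 0.04 in ARSB-null mice 4 and 5. So did the small leucine-rich proteoglycans, at -0.21 against 0.14 and 0.07. Hepatocyte and sinusoidal endothelial markers ran the other way, at 0.07 and 0.04 in ARSB-null mouse 6, their highest null liver. Kupffer cell markers lay at 0.28 in control mouse 4, where the collagens were highest, and at 0.20 in control mouse 5, where the collagens were lowest. The part of these cells in the values of the stellate cell and matrix genes was not tested.

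**Figure D4:**
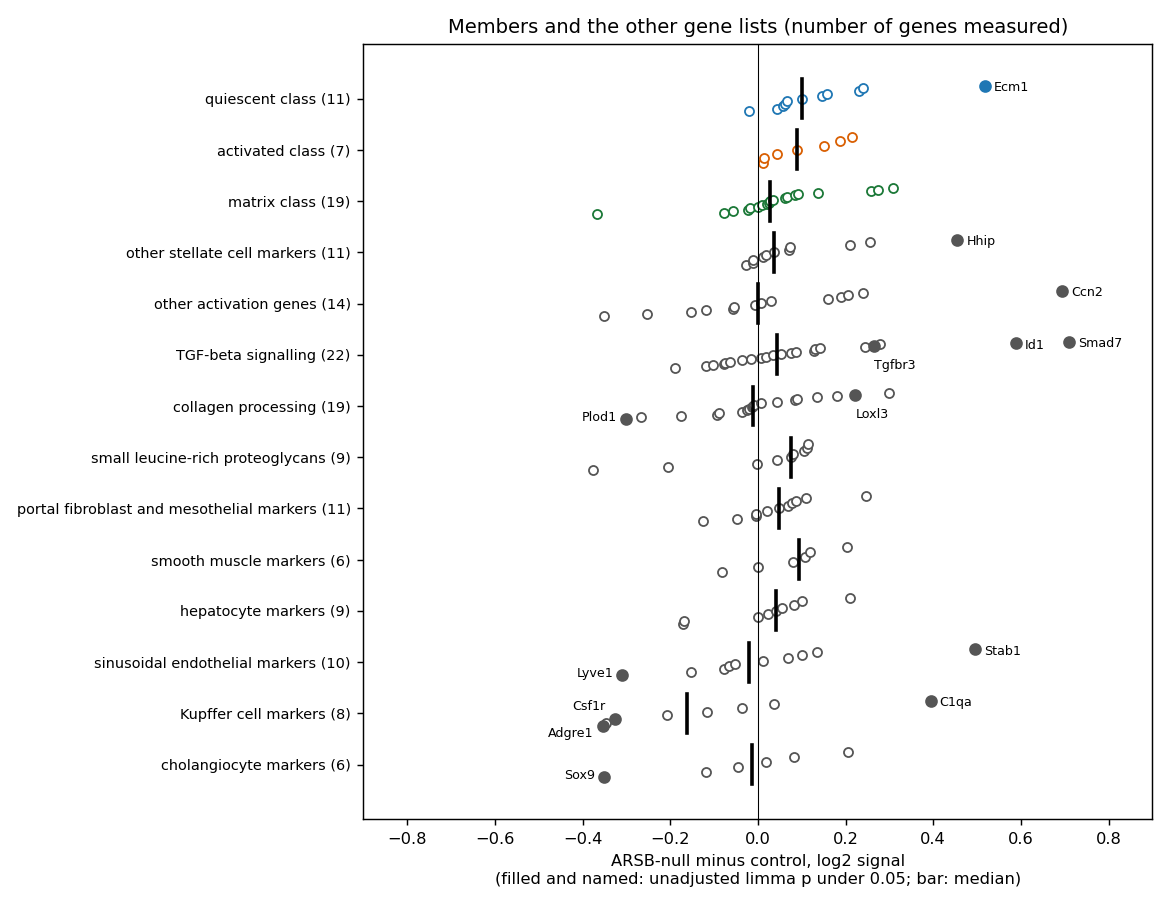
ARSB-null minus control, in log2 signal (horizontal axis), for each measured gene of the 3 classes and of 11 further lists (rows, number of genes in brackets). Each circle is 1 gene, the upright bar is the median of the list, and filled, named circles have an unadjusted limma p under 0.05, of which Smad7 and Ccn2 lie furthest to the right at 0.71 and 0.69. The medians of the 3 classes lie between 0.03 and 0.10.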

How the data were processed

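Total RNA of the liver of 3 ARSB-null and 3 control mice was labelled with biotin and hybridized to Affymetrix mouse gene arrays, 1 per mouse. Each deposited value is the log2 signal of 1 probe set on 1 array. RMA and Partek are the tools in the submitters' processing notes, and the authors' versions and probe library were not given in the sources used here. The methods name a second-generation array, while the probe set numbers are those of the first-generation annotation. RMA matches the distributions of the arrays, which hides any shift common to the bulk of the transcripts. There are no detection calls, and the number of arrays limits the precision. Symbols came from the platform annotation held by GEO, which can be old: of 35556 probe sets, 21789 had 1 symbol, 1621 several and 12146 none.

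Groups were compared by limma 3.58.1 in R 4.3.3 (lmFit, eBayes, two-sided), adjusted by Benjamini-Hochberg over all probe sets. The fit was tested on simulated data in which each array was drawn independently, so that mice of the same number did not vary together there. Members and lists were chosen with earlier results of these data known, so no test was run over a list. Values in every mouse were given for the 17 genes that had an unadjusted p under 0.05, were among the 3 smallest p of their class, had groups without overlap, or define their class (Lrat, Reln, Des, Pdgfrb, Acta2, Tagln, Tgfb1, Col1a1, Col1a2, Col3a1 and Fn1). Of each further list the 3 genes of smallest p were named. Alb, P4ha1 and Vsig4 were chosen after their values were seen.

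Deviations from the group means correlated at 0.396, 0.159 and 0.193 between mice numbered 4, 5 and 6, each above 0.1. The numbers were therefore taken as a possible pairing, from the data alone. Over the stellate cell and matrix genes alone the correlations were 0.454, 0.377 and -0.057, so that the mice numbered 6 fell below 0.1 there. No correlation between mice of different numbers is given for comparison, so whether the mice were paired is not settled. The main fit left the mouse number out. A block for the mouse number, the analysis of variance, other features tested, centring, normalization, variance priors, array weights and left-out arrays were alternatives.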

Additional observations from a re-analysis of the deposited data

How the results depend on the processing

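Under 16 alternatives, 588 values of the 37 stellate cell and matrix genes were computed. 588 kept their side of the threshold, and 15 genes changed sign in at least 1 alternative, never with an unadjusted p under 0.05. The number of these genes higher at an unadjusted limma p under 0.05 was 1, where 5.94% of all probe sets passed in either direction. It became 3 by analysis of variance (6.56% of probe sets) and 2 of 33 with probe sets above the median signal (9.12%). With quantile normalization repeated it was 2 (6.40%), and with a trended and robust prior 2 (6.54%). With array weights it was 4 (10.8%), and without both arrays numbered 4 it was 3 (8.46%). Leaving out 1 array in turn gave 1 to 3 higher, where 4.45% to 8.05% of all probe sets passed in either direction. The same gave 0 to 1 lower (Thbs1, without ARSB-null mouse 6 or control mouse 6). Groups without overlap numbered 2 of 37 instead of 6 with array medians centred (12.0% of all probe sets), 8 to 11 with 1 array left out (18.5% to 28.1% of all probe sets), and 14 without both arrays numbered 4, where 40.9% of all probe sets did not overlap. The causes were not tested, except that groups of fewer arrays overlap less often.

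With the mouse number as a block, 1 probe set was called higher instead of 2 and 3 lower instead of 5, and no call on the stellate cell and matrix genes was altered at the adjusted threshold (1 gene, Ecm1, under an unadjusted p of 0.05, adjusted p 0.376). Calls over all probe sets, higher and lower, were 1 and 1 by analysis of variance, 27 and 33 when only probe sets with 1 symbol were tested, 14 and 14 with array weights, and 1 and 0 without both arrays numbered 4. With 1 array left out they were 1 higher in each case and 3 to 6 lower. Calls higher were 5 above the median signal and 1 with medians centred. Arsb differed by -2.67 without both arrays numbered 4 (limma adjusted p 0.0534), and its other probe set by -2.73 (0.0508), or by -2.66 with an adjusted p of 0.0533 by analysis of variance.

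Precision was limited by the number of arrays, and 4 of the 37 genes had a mean signal at or below the array median.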
